A study of Homo sapiens with 6 samples.

Results

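The genes described here are 30 genes of cholesterol and fatty acid synthesis, of their control by sterol regulatory element-binding proteins (SREBPs) and of sterol transport, out of 31334 gene names on the array. They were chosen by gene name, as a list of pathway members, with earlier results of these data known. All 30 were found, with 42 of the 47230 probes, and 9 of them had several probes. They were measured in H1 cells, an established human embryonic stem cell line, at passage 32 and grown without feeder cells on Matrigel in conditioned medium with basic fibroblast growth factor. Cells were transfected with 2 µg of a pSUPER plasmid encoding a short hairpin RNA (shRNA), and RNA was taken 5 days later. The control group (n = 3) received pSUPER-Luciferase shRNA, directed at a reporter gene that these cells lack. The other group (n = 3) received pSUPER-HERVH shRNA, directed at HERVH, a family of human endogenous retroviruses transcribed in human embryonic stem cells. The series asked which genes are affected by depletion of HERVH. The labels mention no sorting or selection of transfected cells, and the share of cells that took up plasmid was not measured here.

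Cholesterol is built from acetyl-CoA through mevalonate, isoprenoid pyrophosphates, squalene and lanosterol. When membrane sterols are low, SCAP escorts SREBPs from the endoplasmic reticulum to the Golgi, where they are cleaved, and their released domains raise transcription of nearly all enzymes of the pathway and of fatty acid synthesis. When sterols are high, the INSIG proteins hold SCAP and SREBP back, and oxidised sterols activate the liver X receptors, which raise transcription of sterol exporters such as ABCA1.

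Intensities were quantile normalized and are given in arbitrary units of probe brightness, which can be compared between samples for 1 probe but not between probes. Where a gene had several probes, its leading probe is the one with the highest mean over the 6 samples. A gene passed the test when its adjusted p was under 0.05 in limma, adjusted by Benjamini-Hochberg over all 47230 probes. Differences are HERVH shRNA minus control shRNA on the log2 scale, with the standard error (SE) of the fit. Nothing in the labels says whether the replicates came from separate cultures or transfections. P-values therefore rest only on the spread between these samples, which may be technical. The fit also shares that spread across probes of similar brightness, so an SE or p-value does not reflect the spread of 1 gene alone. Without the intensity trend of this sharing, the adjusted p of ABCA1 in limma went from 6.09e-29 to 4.05e-17.

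No gene name on the array contained HERVH or HERV-H, so the target itself was not read by a named probe and the labels were not checked against it. The deposited intensities had medians between 71.2 and 73.8 over the 6 samples. Pearson correlations of log2 intensities over probes lay between 0.994 and 0.995 within groups and between 0.968 and 0.972 across groups, and no sample stood apart from its group. The contrast was wide, with 25.9% of all probes and 29.8% of genes passing by their leading probe. Among the 17192 genes whose leading probe lay at or above the median brightness of the array, 51.4% passed. Among the 4181 genes at or above its 90th percentile, 72.5% passed.

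The label of the cells was checked against 10 markers of undifferentiated embryonic stem cells. All 10 had leading probes above the median brightness, between the 69.3 and 99.6 percentile. Of these, 7 were lower and 2 were higher with HERVH shRNA. Their summed intensity was 44954 to 46433 in control samples and 38434 to 40249 in HERVH shRNA samples. Without PODXL, the gene of this list that rose most, the sums were 36179 to 37102 and 24677 to 26422. POU5F1, the pluripotency factor OCT4, had the largest fall of the 10, with a difference of -1.02 (adjusted p = 5.62e-15 in limma). NANOG and SOX2 were lower by -0.40 and -0.44. The 2 that rose were PODXL (0.64) and SALL4 (0.22), and TDGF1 did not pass (0.06). Of 6 mesenchymal markers, 5 were higher, with a summed intensity of 4457 to 4741 in control and 12849 to 13461 in HERVH shRNA samples. Most of that sum came from VIM, the brightest of the 6, with means of 3304 in control and 8824 in HERVH shRNA samples. Without TWIST1, the gene of this list that rose most, the sums were 4353 to 4638 and 12063 to 12628. LUM did not pass (0.19), and COL3A1 was dim, with means of 66 and 83. Summed intensities of the endoderm list (1 of 5 genes higher, 1 lower) were 411 to 426 and 1233 to 1292, and the gene that rose was AFP, alpha-fetoprotein, from a mean of 168 to 1029. Without AFP the sums were 245 to 256 and 214 to 245. Those of the mesoderm and blood list (1 higher, 1 lower of 5) were 366 to 391 and 525 to 545, and the gene that rose was HAND1, a mesodermal transcription factor, from a mean of 57 to 221. Without HAND1 the sums were 311 to 332 and 299 to 330.4. A sum over probes is weighted towards the brightest of them. The trophoblast list (1 of 5 higher) had sums of 341 to 359.7 and 371 to 390.4, and the neuroectoderm list (0 of 4 passing) 253 to 262 and 264 to 304. An array probe always has some brightness, so none of these markers was at 0. The marker shifts follow the same division of samples as every comparison described here, and their part in the results was not tested. In bulk RNA, fewer cells of a type and less RNA per cell cannot be told apart.

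Upstream sequences are shown for the 5 genes with the largest absolute differences among those with an entry in the RefSeq promoter table (build GRCh38.p14), and for SREBF2. Each is the 250 bases before the annotated start of the gene on its own strand, and where a gene had several starts the first entry of the table is shown. ABCA1 lies at chr9:104928156-104928405, minus strand, EBP at chrX:48521558-48521807, plus strand, INSIG1 at chr7:155297628-155297877, plus strand, SCD at chr10:100346983-100347232, plus strand, HMGCS1 at chr5:43313413-43313662, minus strand and SREBF2 at chr22:41832855-41833104, plus strand. Capitals mark the CCAAT box, read by the factor NF-Y that works together with SREBPs, on either strand (CCAAT or ATTGG) in EBP, INSIG1, SCD and HMGCS1. In ABCA1 they mark the E-box CACGTG, since that window held no CCAAT, and in SREBF2 the core of the sterol regulatory element, TCACNCCAC.
ABCA1: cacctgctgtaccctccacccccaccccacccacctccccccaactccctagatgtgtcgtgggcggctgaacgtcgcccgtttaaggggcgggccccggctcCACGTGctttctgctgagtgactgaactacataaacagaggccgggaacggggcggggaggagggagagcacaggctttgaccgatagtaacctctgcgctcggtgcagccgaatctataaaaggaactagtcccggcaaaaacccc
EBP: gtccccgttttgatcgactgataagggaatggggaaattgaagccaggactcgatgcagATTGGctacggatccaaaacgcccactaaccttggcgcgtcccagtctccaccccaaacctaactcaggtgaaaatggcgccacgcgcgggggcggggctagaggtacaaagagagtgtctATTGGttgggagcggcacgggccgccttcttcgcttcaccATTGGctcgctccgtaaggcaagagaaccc
INSIG1: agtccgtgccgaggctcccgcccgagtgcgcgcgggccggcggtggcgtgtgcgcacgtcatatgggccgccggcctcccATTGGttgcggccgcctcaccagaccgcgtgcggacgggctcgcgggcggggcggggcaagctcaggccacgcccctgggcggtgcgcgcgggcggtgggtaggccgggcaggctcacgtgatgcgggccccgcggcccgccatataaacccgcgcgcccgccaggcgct
SCD: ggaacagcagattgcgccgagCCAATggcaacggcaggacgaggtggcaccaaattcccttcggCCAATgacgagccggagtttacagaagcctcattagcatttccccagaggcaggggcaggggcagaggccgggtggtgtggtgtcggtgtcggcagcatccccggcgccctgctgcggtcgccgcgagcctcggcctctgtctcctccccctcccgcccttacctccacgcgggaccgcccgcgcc
HMGCS1: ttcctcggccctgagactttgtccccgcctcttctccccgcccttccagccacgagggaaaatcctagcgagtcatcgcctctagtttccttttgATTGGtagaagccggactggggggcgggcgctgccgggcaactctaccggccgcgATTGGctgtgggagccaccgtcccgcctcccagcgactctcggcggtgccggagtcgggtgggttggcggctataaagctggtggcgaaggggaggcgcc
SREBF2: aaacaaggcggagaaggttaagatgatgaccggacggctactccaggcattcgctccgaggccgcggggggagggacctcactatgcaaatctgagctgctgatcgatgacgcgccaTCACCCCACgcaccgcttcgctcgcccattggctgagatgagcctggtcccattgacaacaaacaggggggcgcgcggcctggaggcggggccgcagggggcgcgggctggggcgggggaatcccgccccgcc
The table held 36 such windows for 26 of the 30 genes, some of them overlapping windows of 1 gene, and none for ACAT2, FDFT1, SQLE or FASN. CCAAT on either strand was present for 18 of these 26 genes (69.2%), and in 22 of the 36 windows (61.1%), against 32.7% of 22199 windows of protein coding genes and 32% of all 35116 windows. By direction in the array data, it was present for 13 of the 17 genes that were lower and for 5 of the other 9. In all counts by gene, a gene counted if any of its windows held the letters, while the background is per window. Genes with several windows therefore had more room for a match, which was not adjusted for. The genes with the most windows, IDI1 and ACACA, were both lower. TCACNCCAC, searched on both strands, was found in 1 of the 36 windows, that of SREBF2, against 0.883% of all windows. CACGTG, which reads the same on both strands, was found for 4 of 26 genes and in 5 of the 36 windows (13.9%), against 7.37% of windows of protein coding genes and 6.34% of all windows. By direction, it was present for 1 of the 17 genes that were lower and for 3 of the other 9. The INSIG1 window also holds 1 CACGTG and the SREBF2 window 1 ATTGG, both printed in lower case. A match describes letters in a window and does not show a bound site. Only exact letters were searched, so a window without a match may still hold a variant of the site.

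Genes of the pathway were mostly lower with HERVH shRNA. Of the 30 genes, 21 fell, 6 rose and 3 did not pass, against a background of 14% of all genes lower and 15.7% higher. Bright probes passed more often than dim ones, and 29 of the 30 had leading probes at or above the median brightness, where the background was 24.2% lower and 27.2% higher, and 21 of these 29 fell. Of the 19 at or above the 90th percentile, 14 fell and 5 rose, against 35.7% lower and 36.8% higher among all genes there. The median difference was -0.40 over the 30 genes, 0.01 over all named genes and 0.01 over genes at or above the 90th percentile. The control and HERVH shRNA samples did not overlap for 27 of the 30 genes, against 38.4% of all genes and 77.9% of those at or above the 90th percentile. For 23 of the 30, the difference exceeded the largest range within either group. The matching share of all genes was not computed, so this count is not read as a trait of the 30.

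**Figure D1:**
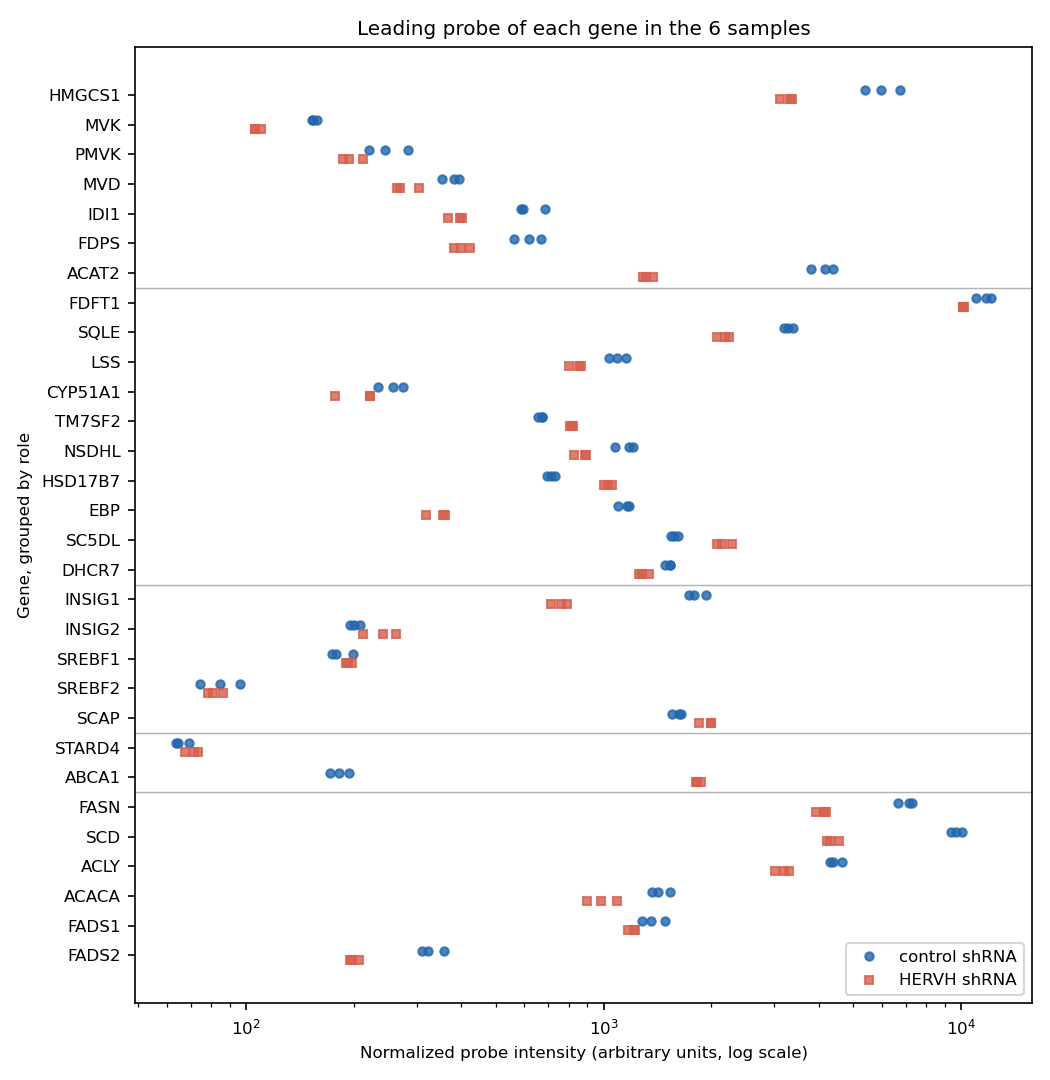
Normalized intensity of the leading probe of each of the 30 genes (horizontal, arbitrary units, log scale) in the 3 control shRNA samples (circles) and the 3 HERVH shRNA samples (squares), with horizontal lines between roles. ABCA1 moved from 172 to 194 in control samples to 1810.3 to 1868 in HERVH shRNA samples, and the groups overlap only for SREBF1, SREBF2 and STARD4.

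All 7 genes of the early, mevalonate part of the pathway fell, with a median difference of -0.61. ACAT2, the cytosolic thiolase that joins acetyl-CoA units in the opening step, had normalized intensities of 4387, 3811 and 4155 in control samples and 1379, 1288 and 1315 in HERVH shRNA samples. The groups were far apart, and the gene was 3.1-fold lower (log2 difference -1.63, SE 0.06, adjusted p = 4.21e-21 in limma). Counted from the most negative difference, it ranked 59 among the 31334 genes. Its dimmer probe, at the 65.9 percentile of brightness, was lower by a smaller difference of -0.37 (SE 0.09), and the mean over both probes by -1.003.

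HMGCS1, the cytosolic HMG-CoA synthase, read 6741, 5970.4 and 5381 in control samples and 3318, 3357 and 3113 in HERVH shRNA samples. Every HERVH shRNA sample lay below every control sample, with a difference of -0.88 (SE 0.07, adjusted p = 4.36e-13 in limma). IDI1, which isomerises isopentenyl pyrophosphate, read 687, 597 and 587 in control samples and 401, 396 and 368 with HERVH shRNA, a difference of -0.68 (SE 0.07). FDPS, the synthase of farnesyl pyrophosphate, read 560.2, 669 and 619 against 382, 424 and 398, a difference of -0.61 (SE 0.07). Neither gene had overlapping groups.

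The kinases and the decarboxylase of mevalonate metabolism had smaller differences. MVK, mevalonate kinase, read 154, 158 and 153 in control samples and 110.3, 106 and 106 with HERVH shRNA (difference -0.53, SE 0.08). MVD, which decarboxylates mevalonate pyrophosphate, had a control mean of 377 ± 21 (SD, n = 3) and an HERVH shRNA mean of 279.6 ± 22 (SD, n = 3). PMVK, phosphomevalonate kinase, read 221, 283 and 245 against 186, 194 and 212, with groups close together (difference -0.33, SE 0.08, adjusted p = 0.00148 in limma). The range within the PMVK control samples, 0.36 on the log2 scale, was larger than that difference.

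The genes that act from squalene to cholesterol did not move as 1 block: 7 of the 10 fell and 3 rose, with a median difference of -0.27. EBP, the sterol isomerase that shifts a double bond in the sterol ring, fell by the most of all 30 genes. It read 1159.7, 1175 and 1099 in control samples and 355, 319 and 359.9 in HERVH shRNA samples. The groups were widely separated, with a 3.32-fold decrease (difference -1.73, SE 0.07, adjusted p = 3.92e-21 in limma), and ranked 43 among all genes by the same count.

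SQLE, squalene epoxidase, which carries out an oxygen-requiring, rate-limiting step, read 3280.5, 3385 and 3189 in control samples and 2241, 2187 and 2073 in HERVH shRNA samples at its leading probe. That probe was lower by -0.60 (SE 0.06, adjusted p = 2.32e-10 in limma). Its second probe read 878, 807 and 771 against 341, 305 and 304, a larger difference of -1.37 (SE 0.07). Both probes separated the groups, and their mean was lower by -0.99.

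FDFT1, squalene synthase, had the brightest probe of the set, at the 99.6 percentile, and a fall whose size depended on the scaling. It read 10992, 11707 and 12147 in control samples and 10105, 10165 and 10105 with HERVH shRNA, a difference of -0.20 (SE 0.06, adjusted p = 0.0095 in limma). Its other probe was lower by -0.21 (SE 0.06). The difference of the leading probe was larger under median centring (-0.36, adjusted p = 0.000137 in limma) and on deposited values without further scaling (-0.32, adjusted p = 0.000759 in limma). The FDFT1 call was lost without the third control sample (adjusted p = 0.0805) and without the intensity trend of the variance model (adjusted p = 0.07, limma).

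NSDHL, a sterol dehydrogenase that takes part in removal of the C4 methyl groups, read 1077, 1175 and 1211 in control samples and 824, 892 and 886 with HERVH shRNA (difference -0.41, SE 0.06). LSS, lanosterol synthase, read 1035, 1091 and 1155 against 803, 865 and 853 at its leading probe (difference -0.38, SE 0.06). Its 2 dimmer probes did not pass, with differences of 0.16 and -0.14, and the mean over its 3 probes was not called (-0.12, adjusted p = 0.154 in limma). CYP51A1, lanosterol demethylase, was lower by -0.31 (SE 0.08), with 274, 258 and 234 in control samples and 223, 222 and 178 with HERVH shRNA. Its call was lost without the third HERVH shRNA sample (difference -0.20, adjusted p = 0.0846 in limma). DHCR7, the reductase of the last step, was lower at both probes, by -0.23 (SE 0.06) and -0.35 (SE 0.06).

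The 3 genes that rose in this stretch were HSD17B7, SC5DL and TM7SF2. HSD17B7, a ketosteroid reductase of the C4 demethylation complex, read 693, 734 and 711 in control samples and 1005, 1029 and 1057 with HERVH shRNA. All 3 HERVH shRNA values were above the controls, by 0.53 (SE 0.06, adjusted p = 7.67e-09 in limma). SC5DL, now named SC5D, the lathosterol desaturase, read 1577, 1611 and 1545 against 2285, 2071 and 2144 (difference 0.46, SE 0.06, adjusted p = 1.13e-07 in limma). TM7SF2, a sterol reductase acting at C14, read 672, 657 and 674 against 814, 806 and 821, a difference of 0.29 (SE 0.06) with very little spread within either group. These rises stand beside falls of EBP and NSDHL, which act in the same series of reactions.

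**Figure D2:**
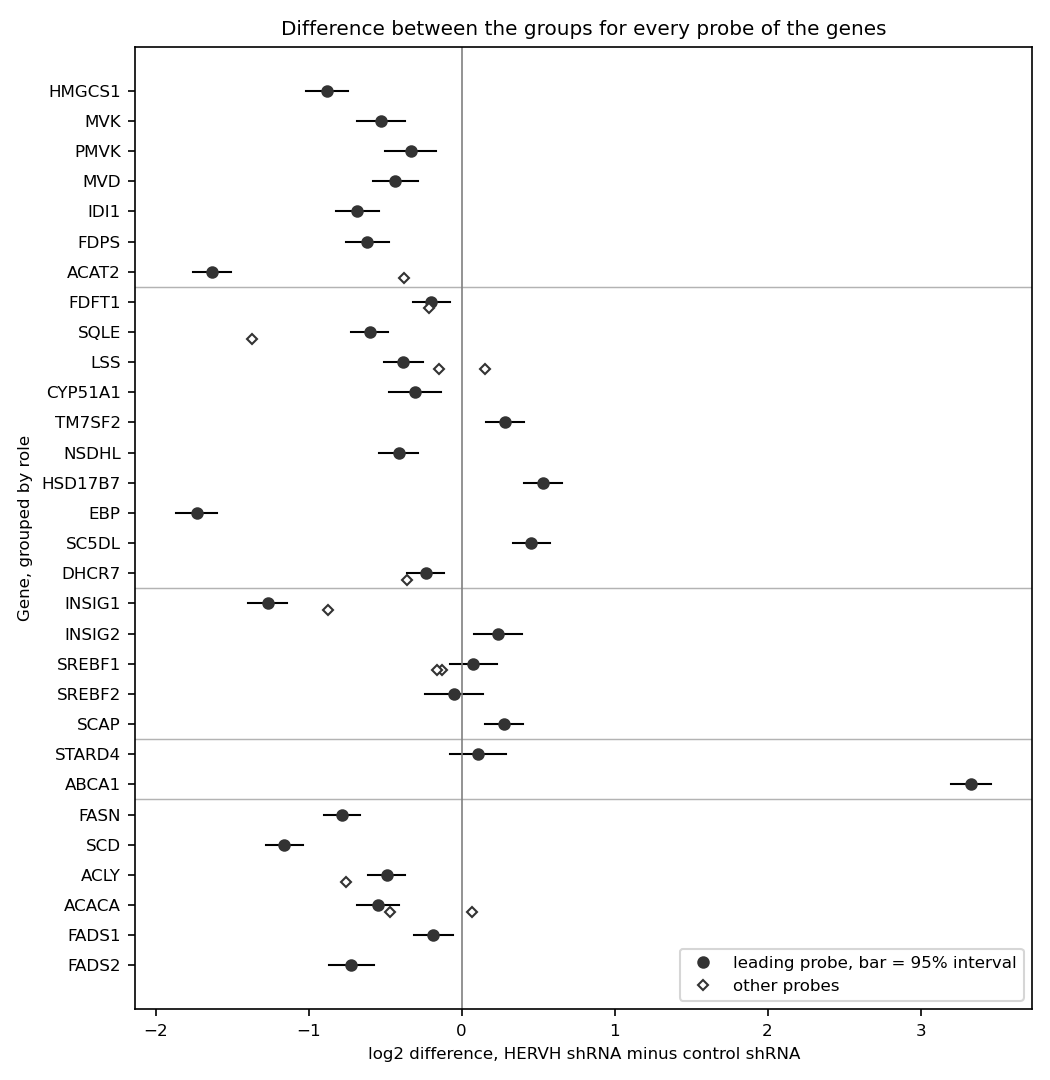
Difference between HERVH shRNA and control shRNA on the log2 scale (horizontal) for all 42 probes of the 30 genes; filled circles are leading probes with 95% confidence intervals, open diamonds the other 12 probes. Most leading probes lie left of 0, ABCA1 lies at 3.33, and the probes of SQLE and ACAT2 lie furthest from each other within a gene.

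Over the 42 probes, 28 were lower, 6 higher and 8 did not pass, against 13.2% lower and 12.7% higher among all probes. Of the 12 probes that were not leading, 7 passed in the direction of their gene's leading probe, 5 did not pass and 0 passed in the opposite direction. The matching shares among all genes with several probes were not computed, so these counts are not read as a trait of the 30. Genes named as copies in the RefSeq table exist for 5 of the 30: 10 for FDPS, 3 for IDI1, 3 for CYP51A1, 2 for HSD17B7 and 1 for SCD. Whether their transcripts bind these probes was not examined, since probe sequences were not used here, so the values of these 5 genes carry that uncertainty. In the same table the annotated spans of 19 of the 30 genes overlap another gene, and for 8 of them (MVK, IDI1, ACAT2, SREBF1, ABCA1, ACACA, FADS1 and FADS2) a protein coding one. ACAT2 overlaps TCP1 among others, FADS1 overlaps FADS2, and ABCA1 overlaps NIPSNAP3B. Whether a probe lies in a shared stretch was not examined either.

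Among the 5 genes that control SREBPs, only INSIG1 fell. INSIG1, which retains the SCAP and SREBP complex in the endoplasmic reticulum and is itself a well-known SREBP target, read 1729.7, 1929 and 1788 in control samples and 789.6, 711 and 761 with HERVH shRNA. It was 2.41-fold lower with no overlap of groups (difference -1.27, SE 0.06, adjusted p = 7.31e-18 in limma), and its dimmer probe was lower by -0.88 (SE 0.09). INSIG2, its paralog, whose transcription does not depend on SREBPs in the same way, read 200.3, 195 and 209 in control samples and 262, 241 and 212 with HERVH shRNA. The INSIG2 groups nearly touched, and the difference of 0.24 (SE 0.08, adjusted p = 0.0181 in limma) was no longer called under median centring (adjusted p = 0.122) or without control replicate 2 (0.0784), HERVH shRNA replicate 1 (0.149) or HERVH shRNA replicate 2 (0.0677).

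SCAP, the sterol-sensing escort, rose from 1551, 1642 and 1624 to 1845, 1997 and 1994 (difference 0.28, SE 0.06, adjusted p = 0.000376 in limma). SREBF1, which encodes SREBP-1, did not pass at any of its 3 probes. Its leading probe read 178, 199.5 and 174 in control samples and 198, 193 and 191 with HERVH shRNA, and the 95% interval of the difference ran from -0.08 to 0.23. SREBF2, which encodes SREBP-2, the isoform tied most closely to cholesterol synthesis, read 96, 74 and 85 against 81, 86 and 78. The samples overlapped and the interval ran from -0.24 to 0.14. Its probe lay at the 62.8 percentile of brightness, so a difference of its transcript could be understated there.

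ABCA1, the transporter that exports cholesterol to apolipoproteins and a classical target of the liver X receptors, had the largest difference of the 30 genes. It read 182, 172 and 194 in control samples and 1810.3, 1828 and 1868 in HERVH shRNA samples. The groups were about an order of magnitude apart, with a 10.1-fold rise (difference 3.33, SE 0.06, adjusted p = 6.09e-29 in limma). Counted from the most positive difference, it ranked 8 among 31334 genes. STARD4, a cytosolic carrier of sterols, was dim, at the 42.7 percentile, and overlapped between groups, with 69, 64 and 64 in control samples and 68, 74 and 72 with HERVH shRNA (95% interval from -0.07 to 0.29).

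All 6 genes of fatty acid synthesis and desaturation fell, with a median difference of -0.63. SCD, the stearoyl-CoA desaturase, read 9389, 10084 and 9703 in control samples and 4544, 4216 and 4312 with HERVH shRNA. It was 2.23-fold lower, with narrow groups that did not overlap (difference -1.16, SE 0.06, adjusted p = 1.13e-17 in limma). FASN, fatty acid synthase, read 7282, 7165 and 6668 against 4138, 3939 and 4203 (difference -0.78, SE 0.06, adjusted p = 4.36e-13 in limma). FADS2, the delta-6 desaturase of polyunsaturated fatty acids, read 357, 323 and 311 against 198, 207 and 196 (difference -0.72, SE 0.07).

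ACACA, the acetyl-CoA carboxylase that commits carbon to fatty acids, was lower at both of its bright probes, by -0.54 (SE 0.07) and -0.47 (SE 0.06). Its remaining probe, at the 2.88 percentile of brightness, did not pass (0.07, SE 0.08), and the mean over its 3 probes was lower by -0.31. ACLY, which makes cytosolic acetyl-CoA from citrate for both sterols and fatty acids, was lower at its 2 probes by -0.49 (SE 0.06) and -0.75 (SE 0.07). FADS1, the delta-5 desaturase encoded beside FADS2, had the smallest fall that passed, -0.18 (SE 0.06, adjusted p = 0.0256 in limma). It read 1278, 1482 and 1357 in control samples and 1224, 1173 and 1219 with HERVH shRNA. That call was lost without control replicate 2 (-0.13, adjusted p = 0.229), control replicate 3 (-0.19, 0.054) or HERVH shRNA replicate 2 (-0.17, 0.114), and without the intensity trend (adjusted p = 0.109, limma).

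**Figure D3:**
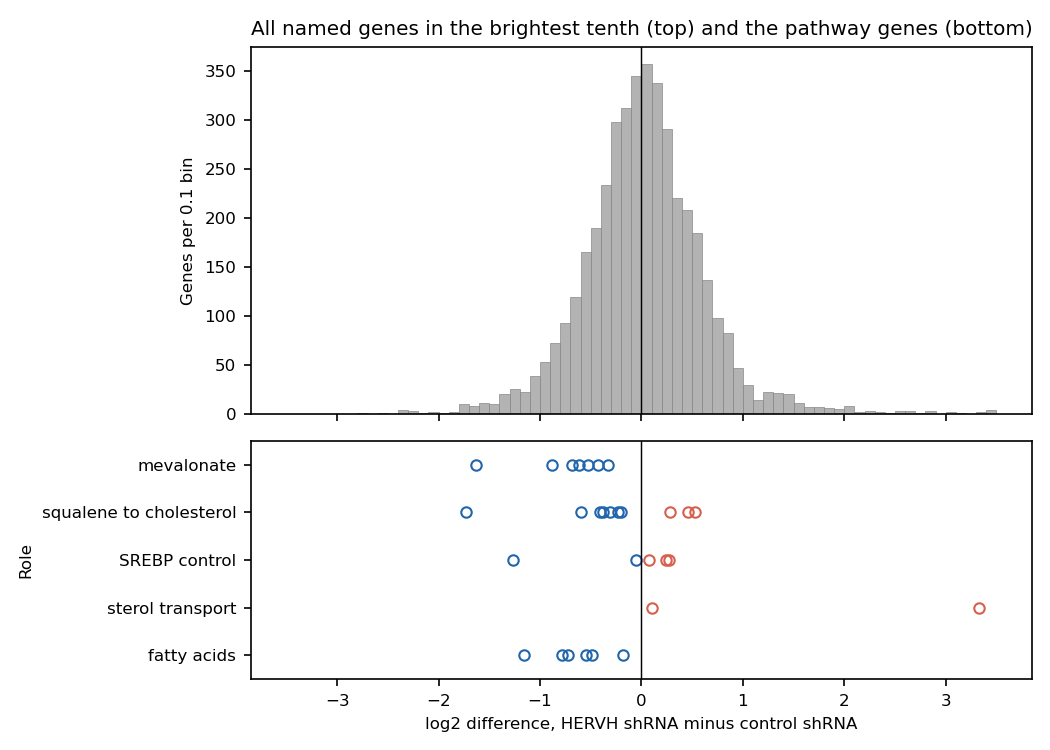
Histogram of the log2 difference, HERVH shRNA minus control shRNA, for the 4181 named genes whose leading probe lay at or above the 90th percentile of brightness (top; 2 genes beyond the axis are drawn in the end bins), with the 30 pathway genes by role beneath (1 circle per gene). The pathway genes are drawn at any brightness, and 19 of the 30 lie at or above that percentile. All 13 mevalonate and fatty acid genes, some of them dimmer than that, lie left of 0, while the median of the bright genes is 0.01.

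A further 38 genes of sterol and lipid metabolism, among them enzymes, receptors, carriers and regulators, were all on the array. Here 11 were lower, 11 higher and 16 did not pass, with a median difference of -0.05, so that 57.9% passed, against 29.8% of all genes. Of the 34 at or above the median brightness, 64.7% passed, against 51.4% of all genes there. Of these, 11 were lower (32.4% against 24.2%) and 11 higher (32.4% against 27.2%). Of the 15 at or above the 90th percentile, 9 passed, against 72.5% of all genes there.

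Among its enzymes of synthesis, ACSS2, which makes acetyl-CoA from acetate, had the largest fall of this list by leading probe, from 2248, 2344 and 2123 to 918, 907 and 888 (difference -1.31, SE 0.06). Of its 4 dimmer probes, 1 was lower by -1.32 (SE 0.06) and another by -0.43 (SE 0.10), while 2 did not pass (-0.10 and 0.14). The mean over its 5 probes was lower by -0.60, less than the means of ELOVL6 (-1.30) and LPIN1 (-1.09). LPIN1, a phosphatidate phosphatase, was lower by -1.09 (SE 0.07), and ELOVL6, an elongase of long-chain fatty acids, by -0.81 (SE 0.06) at its leading probe and -1.79 (SE 0.07) at its other probe. SC4MOL, the C4-methylsterol oxidase, did not pass at its bright leading probe (-0.03, SE 0.06) or at another (0.15), but a dimmer probe read 196, 195.6 and 190.5 against 83, 73 and 77 (difference -1.32, SE 0.08). Over the mean of its 3 probes it was called lower (-0.40, adjusted p = 2.75e-05 in limma).

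Receptors, carriers and sterol-modifying enzymes of the list included genes that rose. VLDLR, a lipoprotein receptor, rose from 114, 115 and 115 to 254, 239 and 228 at its leading probe (difference 1.07, SE 0.08). Its other probe, at the 1.47 percentile of brightness, did not pass (-0.10, SE 0.08), and the mean of both was higher by 0.48. CH25H and CYP27A1, which hydroxylate cholesterol to oxysterols, rose by 1.12 (SE 0.09) and 0.91 (SE 0.07). NPC1, which exports cholesterol from lysosomes, rose by 0.78 (SE 0.06), and NR1H2, the liver X receptor beta, by 0.77 (SE 0.07). NR1H3, the liver X receptor alpha, fell by 0.30 on the log2 scale (SE 0.07). ABCG1, another exporter and liver X receptor target, did not pass at its leading probe (-0.07, SE 0.08), while 1 of its 5 dimmer probes was higher (0.44, SE 0.09, adjusted p = 0.000298 in limma). MYLIP, which degrades lipoprotein receptors, did not pass (0.12, SE 0.06).

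**Figure D4:**
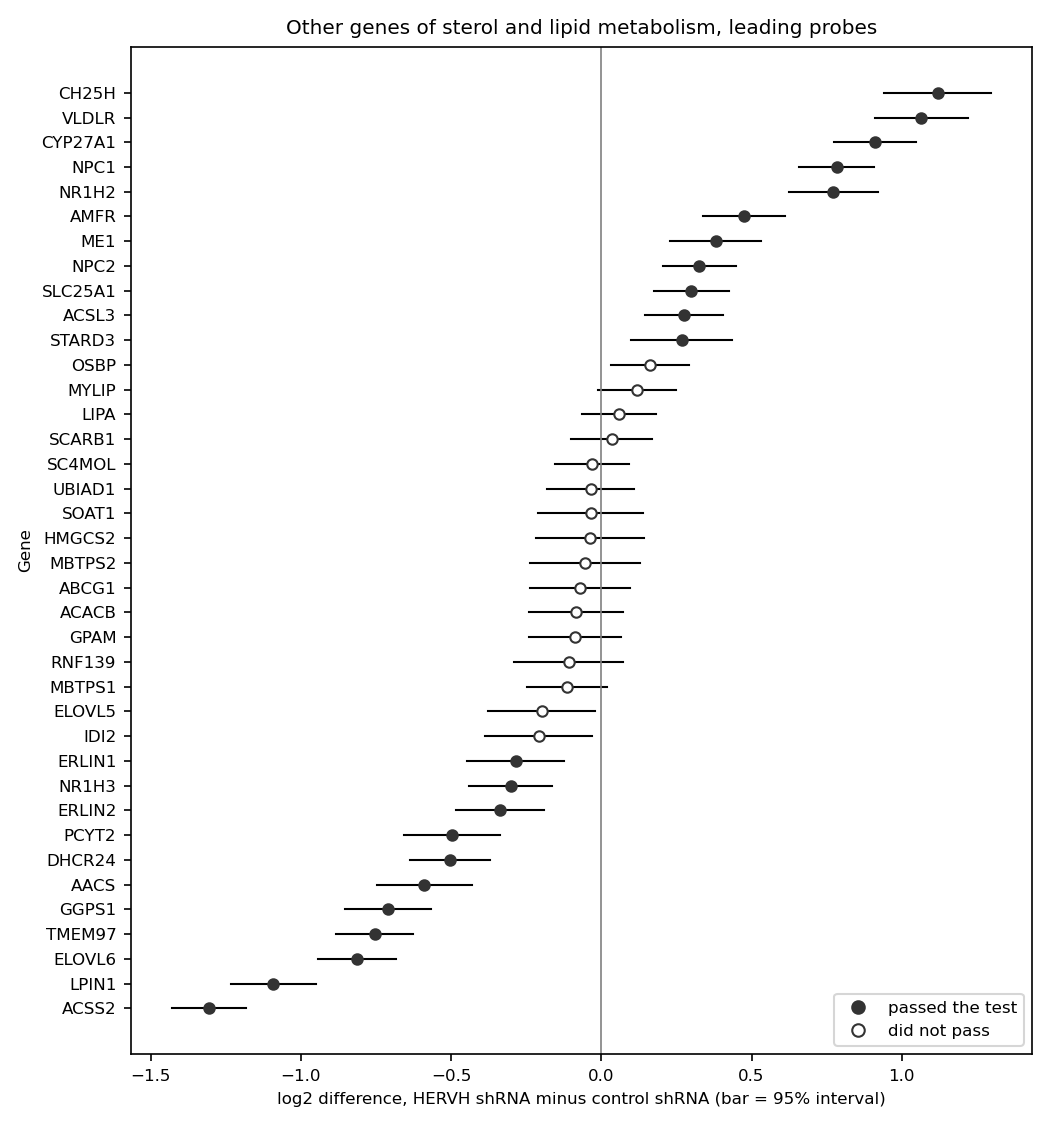
Log2 difference, HERVH shRNA minus control shRNA, of the leading probes of 38 further genes of sterol and lipid metabolism, sorted by difference, with 95% confidence intervals; filled circles passed the test. ACSS2 lies lowest at -1.31 and CH25H highest at 1.12, with 11 genes lower and 11 higher.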

How the data were processed

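RNA of 6 samples was hybridised to 1-colour Illumina bead arrays. Values came from a table whose columns are named by sample and which holds intensities deposited by the authors, on a linear scale. Per the submitters' processing notes, GenomeStudio was used; how values were normalized or corrected for background, and the version, were not given in the sources used here. Gene names came from another deposited table, where they are the only content used (class other: text per probe, deposited by the authors). Its 12 columns of signals and detection p-values carry numbers that match no label, so they were left out, and detection was not assessed.

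Deposited intensities were quantile normalized, floored at 10 (the lowest was 28.9) and put on the log2 scale. Since background may remain in them, differences of dim probes may be understated. limma 3.58.1 in R 4.3.3 fitted the 2 groups, with an intensity trend in eBayes, and the script was tested on simulated data. Sequences were read with Python 3.11.15. The number of arrays limits the precision. All 30 genes are named with their leading probes. Of the further 38 genes, SC4MOL was named whatever its values, as were the 8 called genes with the largest differences, and 2 genes fixed for that list are not reported here; ABCG1, MYLIP and NR1H3 were named after their values were seen. Members and lists were chosen with earlier results of these data known. Cell type markers were planned as ranges and counts only, so the markers named singly were not fixed in advance. Alternatives covered a filter on dim probes, the floor, scaling, variance model, array weights, probe averaging, the replicate number as a block and leaving out each sample. Slide and scan information was not used here.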

Additional observations from a re-analysis of the deposited data

How the results depend on the processing

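Main counts (21 lower and 6 higher of 30 genes) stayed within 1.5 times under every alternative run. Lower genes numbered 19 to 21 and higher genes 5 or 6, also when each sample was left out in turn. Over the array, leaving out 1 sample gave 5486 to 5777 higher and 5712 to 6064 lower probes, against 6013 and 6232. Over the 30 genes, 435 of 449 alternative values kept their direction and their side of the threshold, and 12 kept direction but were no longer called (INSIG2, FDFT1, FADS1, CYP51A1 and LSS). The other 2 changed sign with neither value called: SREBF1 went from 0.08 to -0.07 in the mean of all probes, and SREBF2 from -0.05 to 0.04 without control replicate 1. SC4MOL, of the further list and also not called, went from -0.03 to 0.01 without HERVH shRNA replicate 3. Of the genes recomputed (the 30 and the 9 named by rule from the further list), 0 that passed the test changed sign. Same-numbered samples of the 2 groups had deviations from their group means that correlated at 0.05, 0.00 and 0.03. Samples with different numbers gave -0.06 to 0.03. With 3 samples per group, such correlations cannot decide whether same-numbered samples shared a batch, and the labels do not say what the numbers mean. With the replicate block, 6099 probes were higher and 6291 lower, and the 30 genes again gave 21 lower and 6 higher calls. Median centring gave 5137 higher and 7029 lower probes. Values as deposited without further scaling and normexp correction, both chosen after seeing the data, gave 21 lower and 6 higher of the 30 genes. Fitting from the numbered scanner columns was not run, because no label assigns them. Brightness over background limits SREBF2 and STARD4 most, whose probes were dim.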

Other observations

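Of the further 38 genes, 2 had probes that passed in opposite directions, and both are named after their values were seen. TMEM97, a sterol-regulated protein of the endoplasmic reticulum that binds NPC1, was lower at its leading probe (-0.75, SE 0.06, adjusted p = 5.34e-12 in limma) and higher at its other probe (0.91, SE 0.07, adjusted p = 8.8e-13 in limma). ACSL3, a long-chain acyl-CoA synthetase, was higher at its leading probe (0.27, SE 0.06) and lower at another (-0.85, SE 0.07), and its remaining probe did not pass. Which transcripts these probes read was not examined, and the cause was not tested.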
